A study of Saccharomyces cerevisiae with 12 samples.

Results

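The ATG genes of Saccharomyces cerevisiae encode the machinery of autophagy, and their transcripts were followed here in respiring cells that lost oxygen. Members were all ORFs whose standard name in the R64 annotation is ATG followed by a number. The annotation holds 37 such genes, of which 36 were among the 6150 ORFs of the deposited table. A log2 ratio on all 12 arrays was available for 35 of them, and these were tested within a set of 5672 ORFs. ATG44, a mitochondrial fission factor of mitophagy, was not analysed here. ATG16, whose product binds the Atg12-Atg5 conjugate, had a single log2 ratio, -1.38 on the CO array of 15 min, and was not tested.

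Transcripts were measured in BY4741, a haploid laboratory strain with deletions in HIS3, LEU2, MET17 and URA3, which all cells of the study share. Cells pregrown on glucose were spread on nylon membranes over solid YP acetate, a carbon source that has to be respired, and made anoxic with CO or with N2 for 15, 30, 45, 60 or 120 min or for 24 h. CO displaces oxygen and also binds reduced heme, while N2 displaces oxygen alone. Each gas had 6 arrays, 1 per exposure time, and each array carried RNA of gas-exposed cells, labelled with Cy5, and RNA of cells kept in air for as long, labelled with Cy3. No gas and time was measured again and no dyes were swapped, so the times stood in for replicates. A p-value here therefore sets a difference against the spread between arrays of different times or gases and not between repeated cultures.

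Autophagy encloses cytoplasm or whole organelles in a growing membrane sac, the autophagosome, which fuses with the vacuole so that its content is degraded and recycled. In fed yeast the TORC1 kinase restrains the Atg1 kinase complex, and starvation lifts that restraint. A membrane supply built around Atg9, a phosphatidylinositol 3-kinase, and a pair of ubiquitin-like conjugation systems then expand the sac, and receptors such as Atg32 direct it to a chosen cargo such as mitochondria.

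Values are log2 ratios, most likely of gas over air, since neither the base nor the direction is stated in the sources used here. A ratio of 1 on this scale is a 2-fold difference, and a ratio does not tell whether the gas-exposed cells, the air-kept cells or both had changed since the start. It is an average over each plated culture, so a change in all cells and a larger change in some of them cannot be told apart. Between 5843 and 6056 ORFs had a value per array, and array medians ran from -0.18 to 0.01. The 48 ratios of the 4 deleted genes lay between -0.91 and 0.67, and all 36 ratios of 6 known hypoxic genes at 60 min, 120 min and 24 h were above 0. Wherever 6 values of a gene are given in a row, they run from 15 min through 30, 45, 60 and 120 min to 24 h.

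The ATG genes did not move in 1 direction. At 15 min none of the 35 tested members differed 2-fold from air in either gas (0.688% of all ORFs were higher and 0.494% lower in CO, 1.02% and 0.37% in N2), and the spread of their ratios (SD over members) was 0.277 in CO and 0.223 in N2. At 24 h that spread was 1.13 in CO and 1.24 in N2, next to 1.19 and 1.28 over all ORFs. On the CO array of 24 h, 5 members were at least 2-fold higher and 9 at least 2-fold lower than air, where 16.1% and 21.3% of all ORFs were that far. On the N2 array of 24 h the members counted 8 higher and 10 lower, beside 19.9% and 20.7% of all ORFs. In between, the counts stayed low. At 30 min 0 members were 2-fold away in either gas (2.06% of ORFs higher and 2.82% lower in CO, 3.12% and 3.72% in N2). At 45 min 1 was higher and 0 lower, ATG8 in CO (2.27% and 6.1% of ORFs) and ATG17 in N2 (5.13% and 6.63%). At 60 min ATG1 and ATG2 were lower in both gases (9.73% of ORFs lower in CO, 8.62% in N2), 0 members were higher in CO (5.66% of ORFs) and ATG34 was higher in N2 (5.98%).

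After 24 h the extremes were large. The lowest member at 24 h was ATG1 on both arrays, 10.2-fold lower than air in CO and 12.2-fold lower in N2. The highest was ATG17 in CO, 4.29-fold higher, and ATG8 in N2, 3.81-fold higher.

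**Figure D1:**
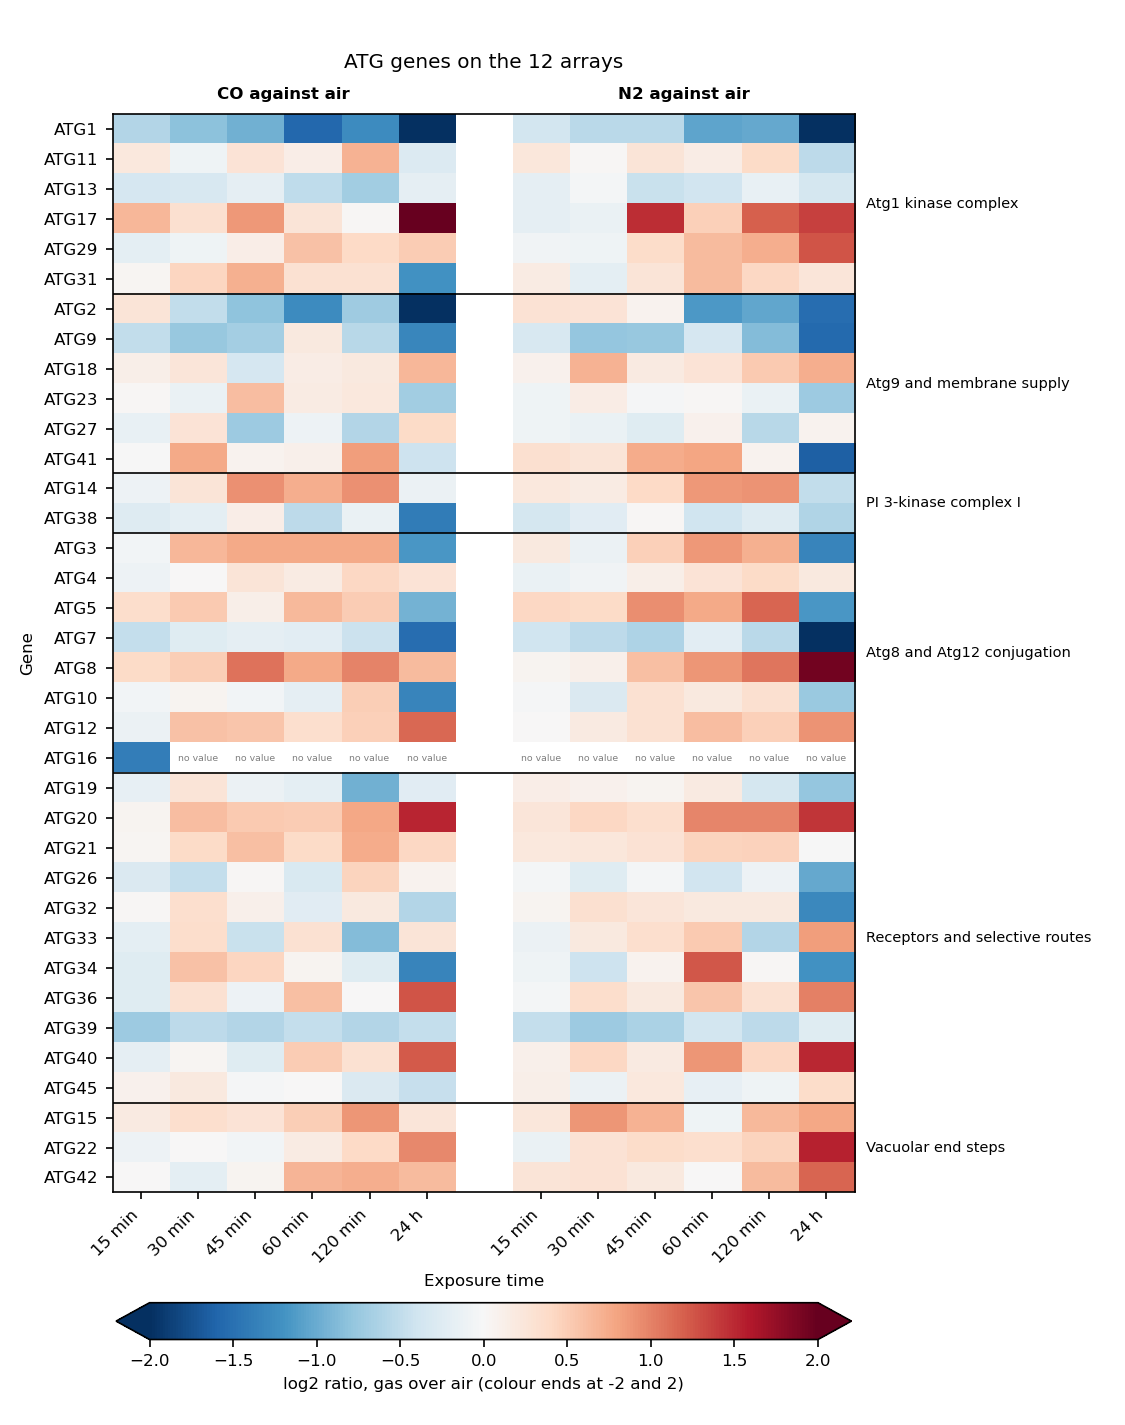
Log2 ratio of gas over air for the 36 ATG genes of the table (down the page, grouped by role) on the 6 CO and the 6 N2 arrays (across, by exposure time); red is above 0, blue is below 0, and the colour scale ends at -2 and 2. Pale columns at 15 min give way to deep colours of both signs at 24 h, where ATG1 reads -3.35 in CO and -3.61 in N2; ATG16 has a value on 1 array.

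The widest movement came after a day. Relative to the equally weighted mean of 3 earlier periods (15 and 30 min, 45 min, 60 and 120 min), 15 of 35 members fell and 9 rose at 24 h over both gases (limma, Benjamini-Hochberg adjusted p under 0.05 over all 5672 ORFs). This is 42.9% of the members lower and 25.7% higher. Over all ORFs the same fit called 25.1% lower and 22.5% higher. The median log2 difference was -0.19 over the members and -0.06 over all ORFs. Each gas contributes 1 array at 24 h, and these might share an air RNA. The error rests on the spread between arrays within each period, after a constant difference between the gases. At 24 h that spread is only the difference between the CO and the N2 array. Quantile normalization, which gives all arrays the same spread, left 0 members higher and 4 lower: ATG1 (-1.45), ATG3 (-1.29), ATG5 (-1.26) and ATG32 (-0.69). It called 6.81% of all ORFs higher and 6.01% lower. With the 5 earlier times weighted equally, ATG18, ATG29 and ATG42 lost their calls (adjusted p of 0.0728, 0.0681 and 0.0602).

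**Figure D2:**
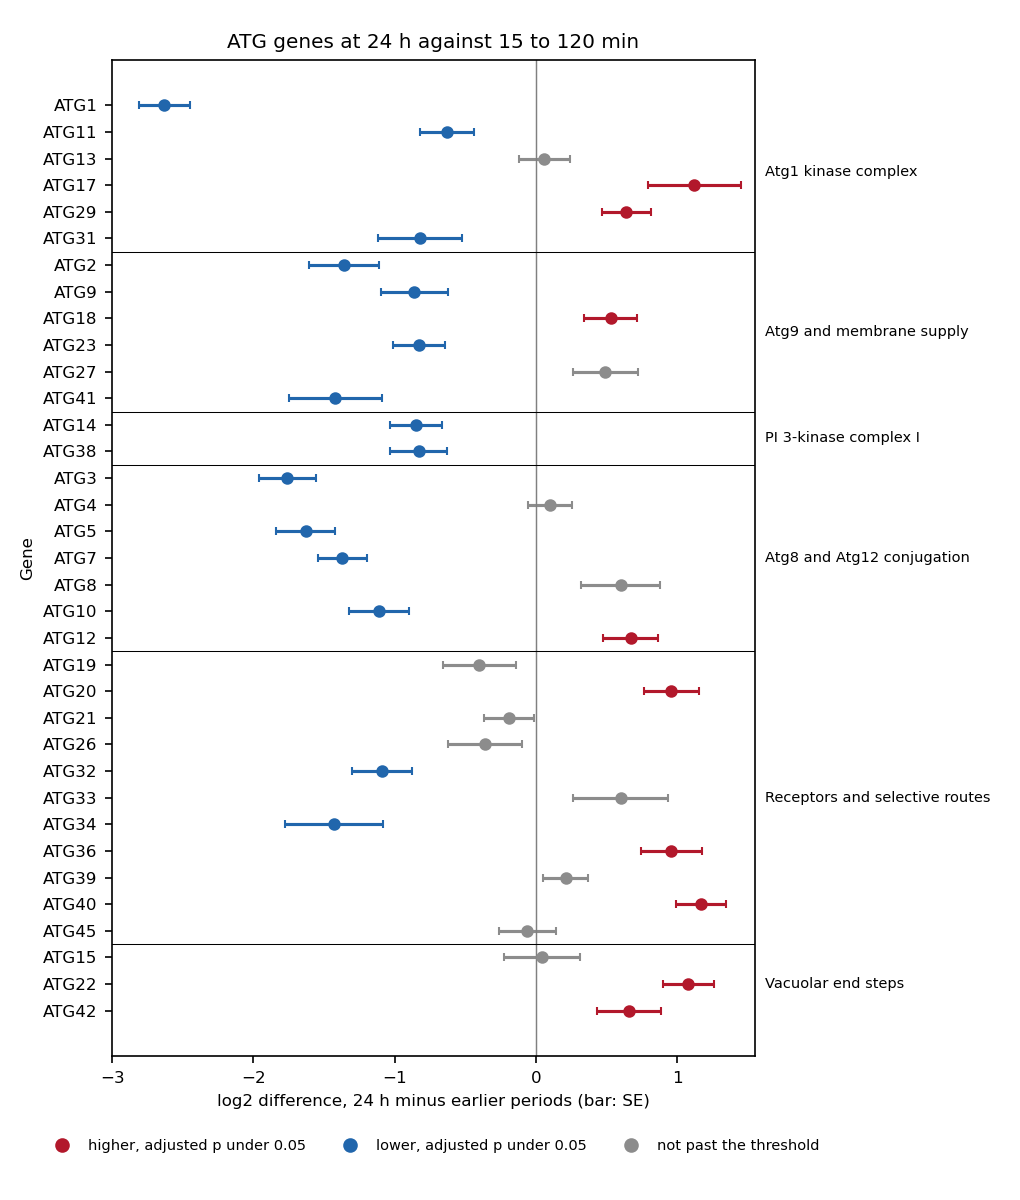
Log2 difference between 24 h and the mean of the 3 earlier periods for the 35 tested ATG genes, with gas as a covariate; points are limma estimates, bars are ± 1 SE, and colour marks the call at an adjusted p of 0.05. ATG1 lies farthest left at -2.63, and called members of both signs occur in 4 of the 6 role groups, the PI 3-kinase pair being lower throughout and the vacuolar group having 2 higher and none lower.

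Of the Atg1 kinase complex, 3 of 6 members fell at 24 h and 2 rose. ATG1 encodes the protein kinase that starts autophagosome formation. Its log2 ratios were -0.59, -0.82, -0.96, -1.57, -1.26 and -3.35 in CO, and -0.36, -0.54, -0.54, -1.05, -1.03 and -3.61 in N2. All 12 were below 0, and in both gases the 24 h value lay far under the other 5. The log2 difference of 24 h from earlier periods was -2.63 ± 0.183 (SE, adjusted p = 1.95e-06), the largest fall among the members. ATG1 also fell within the first hours, by 0.65 on the log2 scale for 60 and 120 min against 15 and 30 min (SE 0.165, adjusted p = 0.0293). That smaller fall passed no longer when 15, 30, 60 or 120 min was left out (adjusted p up to 0.368).

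ATG17 encodes the scaffold that, with Atg29 and Atg31, gathers the other proteins at the site of assembly in starved cells. ATG17 read 0.66, 0.32, 0.87, 0.26, 0.02 and 2.10 in CO, and -0.18, -0.13, 1.47, 0.48, 1.20 and 1.36 in N2. It was highest at 24 h in CO, while in N2 the 45 min array was higher still and the 2 earliest times lay below 0. The difference at 24 h was 1.12 ± 0.329 (SE, adjusted p = 0.0147).

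Its partners split. ATG29 read -0.20, -0.08, 0.14, 0.59, 0.40 and 0.51 in CO, and -0.07, -0.08, 0.36, 0.63, 0.73 and 1.26 in N2. The 2 earliest arrays of each gas were below 0 and all others above it. ATG29 rose at 60 and 120 min (log2 difference 0.69 ± 0.158, adjusted p = 0.019) and at 24 h (0.64 ± 0.175, adjusted p = 0.0101). The earlier rise was lost without 15, 30 or 120 min (adjusted p up to 0.298). ATG29 overlaps SET6 in the annotation, so its probe may carry signal of both. ATG31 fell at 24 h by 0.82 (SE 0.3, adjusted p = 0.0399), but the fall lay in CO, with -1.21 there and 0.24 in N2, and it was lost when any 1 earlier time was left out (adjusted p up to 0.0824).

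ATG11 and ATG13 moved least in this complex. ATG11, the scaffold of selective autophagy, read 0.21, -0.08, 0.27, 0.13, 0.70 and -0.27 in CO, and 0.23, 0.02, 0.25, 0.15, 0.39 and -0.52 in N2. The 24 h arrays were the lowest of both gases. The log2 difference was -0.63 ± 0.189 (SE, adjusted p = 0.0166), and without the 15 min arrays the adjusted p was 0.0511. ATG13, the regulatory subunit that TORC1 phosphorylates, read -0.34, -0.32, -0.18, -0.51, -0.70 and -0.18 in CO, and -0.18, -0.04, -0.44, -0.38, -0.15 and -0.35 in N2. All 12 values were slightly below 0, with 24 h inside the range of the other times in both gases (log2 difference 0.06 ± 0.179, adjusted p = 0.817).

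Among the genes for Atg9 and membrane supply, 4 of 6 fell at 24 h and 1 rose. ATG9 encodes the membrane-spanning protein whose vesicles seed the sac. It read -0.49, -0.76, -0.68, 0.20, -0.56 and -1.30 in CO, and -0.32, -0.77, -0.76, -0.34, -0.87 and -1.56 in N2. Only the CO array of 60 min was above 0, and 24 h was lowest in both gases. ATG9 fell at 24 h by 0.86 on the log2 scale (SE 0.238, adjusted p = 0.0107).

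ATG2 encodes the lipid transfer protein that feeds the growing membrane. Its ratios were 0.26, -0.49, -0.81, -1.26, -0.71 and -2.08 in CO, and 0.29, 0.28, 0.07, -1.15, -1.04 and -1.53 in N2. ATG2 was above air at 15 min in both gases and below it from 30 min in CO and from 60 min in N2. It fell at 60 and 120 min against 15 and 30 min by 1.12 (SE 0.226, adjusted p = 0.0131), the largest early change of any member, and lost that call without 15 min alone (adjusted p = 0.279). At 24 h it was lower than the earlier periods by a log2 difference of -1.36 ± 0.249 (adjusted p = 0.000954).

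ATG18, the phosphoinositide-binding partner of Atg2, went the other way. It read 0.12, 0.24, -0.34, 0.15, 0.19 and 0.67 in CO, and 0.08, 0.70, 0.18, 0.27, 0.52 and 0.72 in N2. Its 24 h value was the highest of each gas, in N2 just above that of 30 min. The log2 difference at 24 h, 0.53 ± 0.188 (adjusted p = 0.0347), was lost without 15, 45 or 60 min (adjusted p up to 0.105).

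ATG41 encodes a protein that binds Atg9. It read -0.01, 0.76, 0.07, 0.10, 0.83 and -0.42 in CO, and 0.32, 0.26, 0.74, 0.79, 0.07 and -1.63 in N2. Of the 10 earlier values only the CO array of 15 min was below 0, and both 24 h values were the lowest of their gas, N2 much more so. The log2 difference was -1.42 ± 0.331 (SE, adjusted p = 0.00428). ATG23, which helps Atg9 traffic, fell at 24 h by 0.83 (SE 0.183, adjusted p = 0.00296), with -0.70 in CO and -0.73 in N2. ATG27, which does so too, read 0.39 in CO and 0.07 in N2 after 24 h and was not called (log2 difference 0.49 ± 0.23, adjusted p = 0.0965).

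Both ATG-named subunits of phosphatidylinositol 3-kinase complex I fell at 24 h. ATG14, which brings the complex to the assembly site, read -0.10, 0.25, 0.91, 0.72, 0.91 and -0.12 in CO, and 0.21, 0.17, 0.40, 0.86, 0.90 and -0.49 in N2. It climbed over the first hours and stood below air in both gases at 24 h. The rise at 60 and 120 min against 15 and 30 min was 0.71 ± 0.168 (adjusted p = 0.0215), and it was lost without 15, 30 or 120 min (adjusted p up to 0.305). The difference at 24 h was -0.85 ± 0.186 (adjusted p = 0.00291). ATG38, which holds the complex together, was lower at 24 h by 0.83 on the log2 scale (SE 0.202, adjusted p = 0.00553), with -1.40 in CO and -0.60 in N2.

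In the conjugation systems, which attach Atg8 to phosphatidylethanolamine and Atg12 to Atg5, 4 of 7 tested members fell at 24 h and 1 rose. ATG3, ATG5, ATG7 and ATG10 fell, ATG12 rose, and ATG4 and ATG8 were not called. ATG7 encodes the E1 enzyme that activates both Atg8 and Atg12. It read -0.47, -0.25, -0.18, -0.21, -0.43 and -1.52 in CO, and -0.40, -0.52, -0.62, -0.21, -0.54 and -1.99 in N2. All 12 ratios were below 0, and the 24 h arrays were 2.87-fold lower than air in CO and 3.97-fold lower in N2. The log2 difference at 24 h was -1.37 ± 0.176 (adjusted p = 0.000101).

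ATG3 and ATG10 encode the E2 enzymes for Atg8 and for Atg12. ATG3 read -0.06, 0.67, 0.75, 0.76, 0.76 and -1.16 in CO, and 0.20, -0.11, 0.47, 0.86, 0.71 and -1.32 in N2. It stood above air from 30 min in CO and from 45 min in N2 until 120 min, and below air at 24 h in both. The fall at 24 h was -1.76 ± 0.2 (SE, log2 difference, adjusted p = 4.71e-05). The rise at 60 and 120 min was 0.60 ± 0.181 at an adjusted p of 0.0498, and it was lost when any 1 of the 5 earlier times was left out (adjusted p up to 0.412). ATG10 read -0.05, 0.05, -0.06, -0.18, 0.49 and -1.32 in CO, and -0.02, -0.29, 0.31, 0.20, 0.32 and -0.74 in N2. It lay between -0.29 and 0.31 up to 60 min and was lowest at 24 h in both gases, with a log2 difference of -1.11 ± 0.213 (adjusted p = 0.00127).

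ATG5, the acceptor of Atg12, read 0.35, 0.53, 0.12, 0.65, 0.51 and -0.95 in CO, and 0.42, 0.39, 0.93, 0.76, 1.17 and -1.16 in N2. All 10 values up to 120 min were above 0 and both values at 24 h were below it. The log2 difference at 24 h was -1.63 ± 0.211 (adjusted p = 0.000105).

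ATG12 and ATG8, the ubiquitin-like proteins, were above air at 24 h. ATG12 read -0.11, 0.58, 0.55, 0.34, 0.47 and 1.15 in CO, and 0.01, 0.18, 0.30, 0.62, 0.47 and 0.90 in N2. It was near air at 15 min and highest at 24 h in both gases, with a log2 difference of 0.67 ± 0.197 (adjusted p = 0.0147). ATG8, which coats the membrane and binds cargo receptors, read 0.38, 0.49, 1.09, 0.76, 0.99 and 0.63 in CO, and 0.06, 0.10, 0.60, 0.88, 1.07 and 1.93 in N2. All 12 were above 0, but 24 h was the highest array in N2 and the middle of the range in CO. At 24 h ATG8 was not called (log2 difference 0.60 ± 0.282, adjusted p = 0.0968), though it was with each array centred on its median (0.69, adjusted p = 0.0463). ATG4, the protease that matures Atg8 and frees it from lipid, stayed between -0.14 and 0.41 on all 12 arrays and was not called in any comparison.

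**Figure D3:**
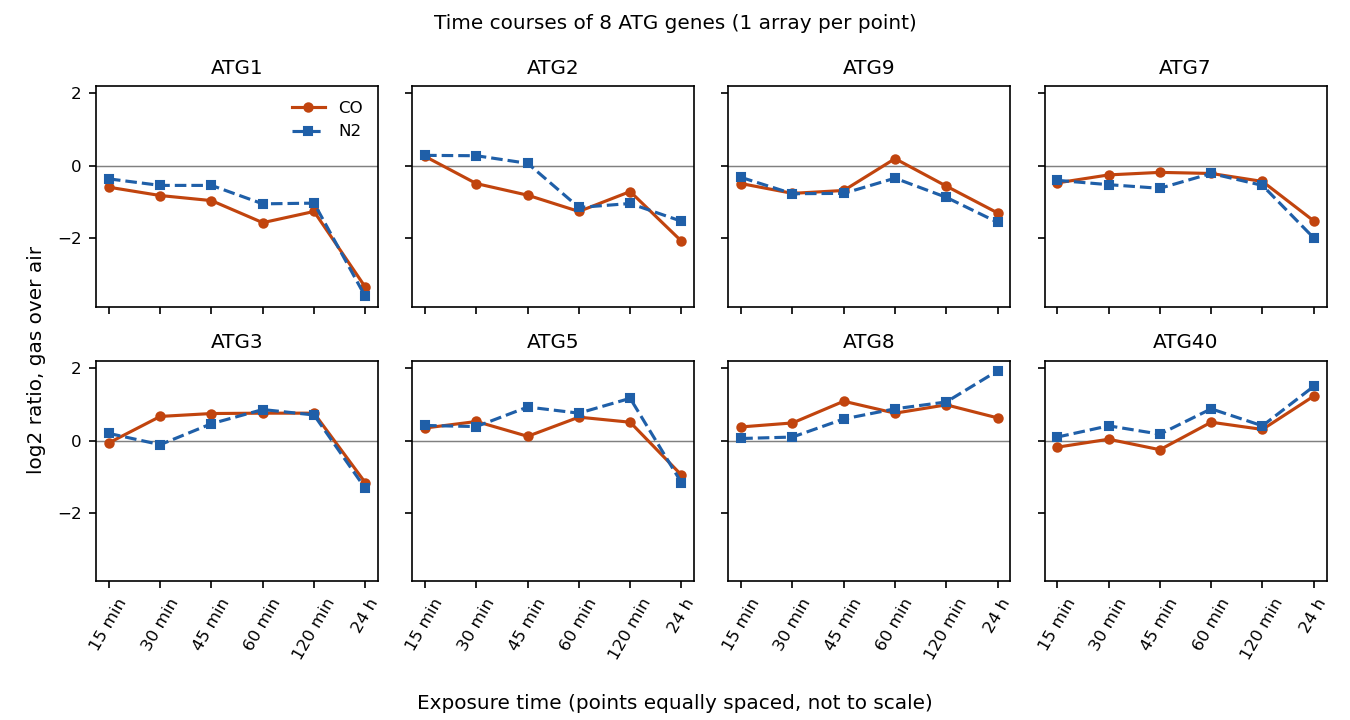
Log2 ratio of gas over air at each exposure time for 8 ATG genes, chosen after their values were seen, with CO as circles on solid lines and N2 as squares on dashed lines; each point is 1 array and times are spaced equally. ATG1, ATG2, ATG9 and ATG7 are lowest at 24 h, ATG3 and ATG5 run above 0 before dropping below it, ATG40 is highest at 24 h, and the gases part at 24 h for ATG8 (0.63 in CO, 1.93 in N2).

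ATG3 and ATG5 shared a course that few ORFs had. A mean ratio of at least 0.5 at 60 and 120 min followed by one of -0.5 or less at 24 h was met by 2 members in CO, ATG3 and ATG5, where 2.03% of all ORFs met it. In N2, 3 members met it, ATG3, ATG5 and ATG34, beside 2.27% of ORFs. Members with at least 0.5 at both stages numbered 3 in CO (ATG8, ATG20 and ATG42, beside 13.1% of ORFs) and 6 in N2 (ATG8, ATG12, ATG17, ATG20, ATG29 and ATG40, beside 14.7%). Those at -0.5 or less at both stages were ATG1 and ATG2 in CO (19.0% of ORFs) and ATG1, ATG2 and ATG9 in N2 (16.1%). The opposite course was met by 0 members in either gas (low at 60 and 120 min and high at 24 h), beside 1.0% of ORFs in CO and 1.83% in N2. These are descriptions of 1 or 2 arrays a period, with no test.

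**Figure D4:**
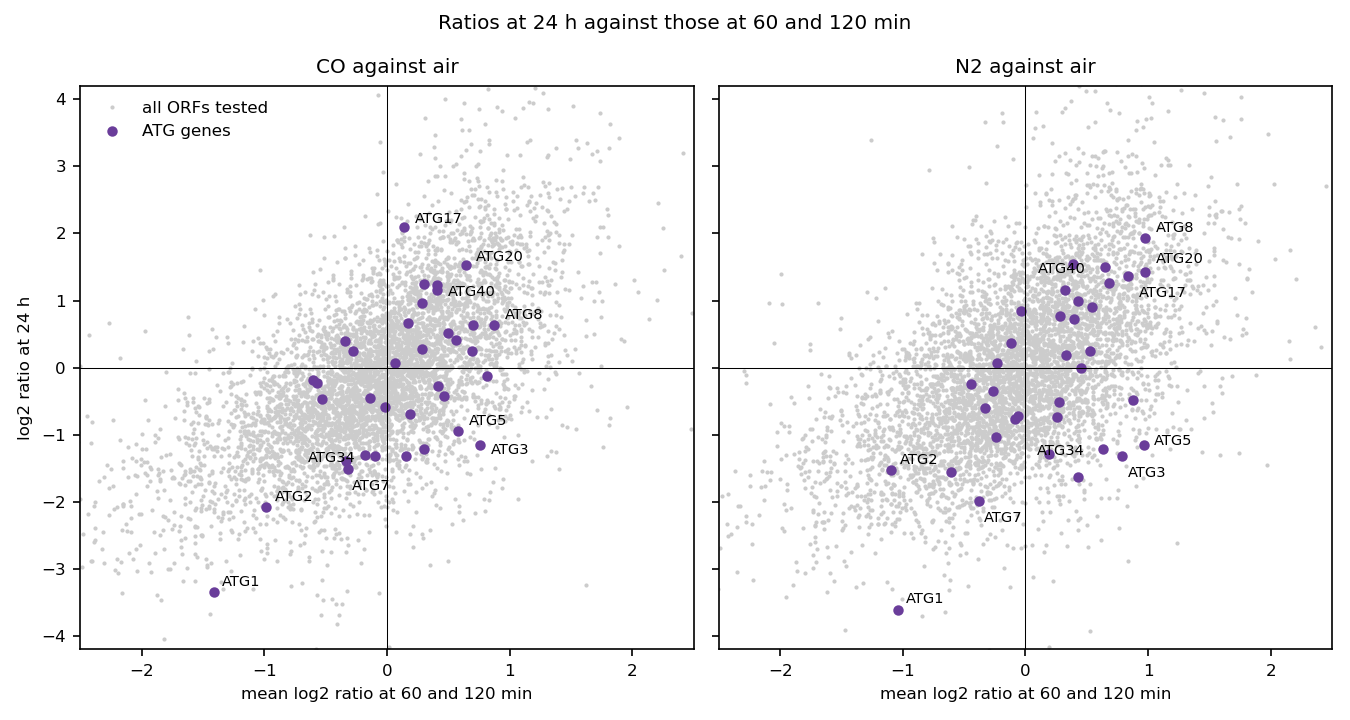
Log2 ratio at 24 h (vertical) against the mean log2 ratio at 60 and 120 min (horizontal) in CO and in N2, with ATG genes in purple over all 5672 tested ORFs in grey; 94 ORFs lie outside the axes in at least 1 panel. ATG3 and ATG5 lie in the lower right quadrant of both panels, ATG1 and ATG2 in the lower left, and ATG17, ATG20, ATG40 and ATG8 in the upper right.

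The receptors and other factors of selective routes split by gene: 3 of 11 rose at 24 h, 2 fell and 6 were not called. ATG40, a receptor for the endoplasmic reticulum, read -0.18, 0.04, -0.25, 0.51, 0.31 and 1.23 in CO, and 0.10, 0.41, 0.18, 0.88, 0.41 and 1.5 in N2. It lay between -0.25 and 0.41 up to 45 min and was highest at 24 h in both gases. ATG40 had the largest rise among the members, a log2 difference of 1.17 ± 0.178 (adjusted p = 0.000288). ATG36, the receptor for peroxisomes, read -0.25, 0.30, -0.10, 0.60, 0.00 and 1.25 in CO, and -0.04, 0.35, 0.19, 0.55, 0.30 and 1.00 in N2. Both 24 h arrays stood above all others, and the log2 difference was 0.96 ± 0.217 (adjusted p = 0.00358).

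ATG20 encodes a sorting nexin that works with Snx4. It read 0.05, 0.62, 0.53, 0.50, 0.78 and 1.53 in CO, and 0.24, 0.41, 0.33, 0.98, 0.97 and 1.43 in N2. All 12 values were above 0, with 15 min lowest and 24 h highest in both gases. The log2 difference at 24 h was 0.96 ± 0.195 (adjusted p = 0.00189).

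ATG32 encodes the mitochondrial surface receptor that mitophagy requires. It read 0.03, 0.33, 0.10, -0.23, 0.19 and -0.59 in CO, and 0.06, 0.32, 0.24, 0.20, 0.19 and -1.29 in N2. Up to 120 min it lay between -0.23 and 0.33, and 24 h was the lowest array of each gas. ATG32 fell at 24 h by 1.09 on the log2 scale (SE 0.211, adjusted p = 0.00139) and was among the 4 genes still called after quantile normalization (adjusted p = 0.0484). ATG33, a mitochondrial outer membrane protein that also takes part in mitophagy, ran from -0.86 to 0.35 in CO and from -0.59 to 0.84 in N2 and was not called (log2 difference 0.60 ± 0.334, adjusted p = 0.161).

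ATG34 encodes a receptor for alpha-mannosidase in starved cells, and it lies next to its relative ATG19, the receptor of the cytoplasm-to-vacuole route. ATG34 read -0.25, 0.59, 0.43, 0.05, -0.25 and -1.32 in CO, and -0.08, -0.41, 0.07, 1.24, 0.03 and -1.21 in N2. Its earlier values scattered around 0, and 24 h was lowest in both gases. The log2 difference at 24 h was -1.43 ± 0.348 (adjusted p = 0.00553). ATG19 read -0.23 in CO and -0.77 in N2 after 24 h and was not called (log2 difference -0.40 ± 0.257, adjusted p = 0.215).

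ATG39, a receptor for the nuclear envelope, was below air on all 12 arrays with no trend in time. It read -0.73, -0.52, -0.58, -0.47, -0.59 and -0.47 in CO, and -0.47, -0.73, -0.64, -0.36, -0.53 and -0.24 in N2. Its lowest value in CO was already that of 15 min, so the mean with the 15 min ratio subtracted was 0.20 in CO (adjusted p = 0.245) and -0.03 in N2 (adjusted p = 0.876). With no dye swap, a difference between the dyes cannot be told apart from an early effect of gas, for this gene or any other. ATG21, a phosphoinositide-binding protein that helps attach Atg8 to lipid, read 0.04, 0.38, 0.60, 0.39, 0.74 and 0.41 in CO, and 0.21, 0.23, 0.29, 0.45, 0.46 and -0.01 in N2. It was above 0 on 11 of 12 arrays, and its difference at 24 h was not called (log2 difference -0.19 ± 0.175, adjusted p = 0.395). ATG26, a sterol glucosyltransferase, and ATG45 ran from -1.03 to 0.44 and from -0.46 to 0.36 over all arrays and were called in no comparison.

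At the vacuolar end, 2 of 3 members rose at 24 h and none fell. ATG22 encodes a transporter that releases amino acids from the vacuole. It read -0.10, 0.01, -0.06, 0.17, 0.40 and 0.96 in CO, and -0.13, 0.29, 0.36, 0.34, 0.44 and 1.54 in N2. The 24 h array was highest in both gases, with a log2 difference of 1.08 ± 0.18 (adjusted p = 0.000524). ATG42, a vacuolar carboxypeptidase, read 0.00, -0.20, 0.05, 0.68, 0.73 and 0.64 in CO, and 0.26, 0.29, 0.19, 0.01, 0.63 and 1.16 in N2. In CO the last 3 arrays were about equal, and in N2 24 h was highest. Its log2 difference of 0.66 ± 0.228 (adjusted p = 0.0316) was lost without 15, 30 or 45 min (adjusted p up to 0.0652). ATG15, the lipase that opens autophagic bodies, read 0.18, 0.33, 0.28, 0.49, 0.89 and 0.24 in CO, and 0.23, 0.89, 0.70, -0.08, 0.65 and 0.77 in N2. It was above 0 on 11 of 12 arrays without a difference at 24 h (0.04 ± 0.269, adjusted p = 0.908).

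Some members kept to a side of air throughout. On all 6 CO arrays 5 members were above 0 (ATG8, ATG15, ATG17, ATG20 and ATG21) and 4 below it (ATG1, ATG7, ATG13 and ATG39), beside 15.8% and 19.6% of all ORFs. On all 6 N2 arrays 6 were above 0 (ATG8, ATG12, ATG18, ATG20, ATG40 and ATG42) and 6 below it (ATG1, ATG7, ATG9, ATG13, ATG26 and ATG39), beside 18.9% and 20.5%. The 24 h ratio lay above the range of the 5 earlier times for 8 members in CO (28.8% of ORFs) and 12 in N2 (34.2%). It lay below that range for 16 members in CO (35.3% of ORFs) and 17 in N2 (34.1%).

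Within the first hours members moved in both directions. Between 60 and 120 min on one side and 15 and 30 min on the other, 3 of 35 rose (ATG3, ATG14 and ATG29) and 2 fell (ATG1 and ATG2). This is 8.57% and 5.71% of the members, where 3.44% and 9.29% of all ORFs were called. The median log2 difference was 0.25 over the members and -0.02 over all ORFs. Leaving out 1 time at a time gave 0 to 4 members higher and 0 to 2 lower, and ATG1 under quantile normalization read 0.03 (adjusted p = 0.934). On single arrays, 3 members were at least 2-fold above air and 2 at least 2-fold below at 120 min in N2, beside 9.29% and 11.9% of ORFs, and 0 above and 1 below at 120 min in CO, beside 10.1% and 13.4%.

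Averaged over the 6 exposure times, members lay on both sides of air. In CO 5 members were higher than air (ATG8, ATG12, ATG15, ATG20 and ATG21) and 5 lower (ATG1, ATG2, ATG9, ATG13 and ATG39), that is 14.3% each, beside 12.7% higher and 19.4% lower over all ORFs. In N2 7 were higher (ATG8, ATG12, ATG15, ATG18, ATG20, ATG29 and ATG40) and 4 lower (ATG1, ATG7, ATG9 and ATG39), beside 17.6% higher and 20.2% lower over all ORFs. With exposure time as a replicate block the counts were 11 higher and 7 lower in CO (25.4% and 30.4% of all ORFs) and 14 higher and 7 lower in N2 (28.2% and 30.7%). That fit takes the spread between times out of the error. What remains is how the gases differ at the same time, so the added calls do not show a steadier difference from air. Median log2 ratios were 0.16 over the members and -0.04 over all ORFs in CO, and 0.12 and -0.02 in N2. CO and N2 arrays of a time may share air RNA, so their calls are given side by side and are not counted as agreement.

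The highest mean in both gases was that of ATG8, 0.72 ± 0.204 in CO (SE, adjusted p = 0.0163) and 0.77 ± 0.204 in N2 (adjusted p = 0.0104). ATG20 followed with 0.67 ± 0.188 in CO (adjusted p = 0.0162) and 0.73 ± 0.188 in N2 (adjusted p = 0.00946). ATG12 averaged 0.50 ± 0.155 in CO and 0.41 ± 0.155 in N2, with adjusted p of 0.0253 and 0.0487. ATG15 averaged 0.40 ± 0.142 in CO and 0.53 ± 0.142 in N2, with adjusted p of 0.0445 and 0.0118. ATG17 had means as high as these, 0.70 ± 0.273 in either gas, but missed the threshold with adjusted p of 0.0612 in CO and 0.0566 in N2. ATG21 was called in CO alone (0.43 ± 0.114, adjusted p = 0.013), with 0.27 ± 0.114 in N2 (adjusted p = 0.0736). ATG18, ATG29 and ATG40 were called in N2 alone, with means of 0.41, 0.47 and 0.58 there against 0.17, 0.23 and 0.28 in CO. The difference between the gases was called for none of these.

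The lowest mean was that of ATG1, -1.43 ± 0.396 in CO (SE, adjusted p = 0.0155) and -1.19 ± 0.396 in N2 (adjusted p = 0.0306). ATG9 averaged -0.60 ± 0.185 in CO (adjusted p = 0.0244) and -0.77 ± 0.185 in N2 (adjusted p = 0.00657). ATG39 averaged -0.56 ± 0.102 in CO and -0.49 ± 0.102 in N2, with adjusted p of 0.00194 and 0.00309. ATG2 was called in CO alone (-0.85 ± 0.29, adjusted p = 0.0386), as was ATG13 (-0.37 ± 0.108, adjusted p = 0.0191). Their N2 means were -0.51 ± 0.29 and -0.26 ± 0.108. ATG7 was called in N2 alone (-0.71 ± 0.219, adjusted p = 0.0211), with -0.51 ± 0.219 in CO (adjusted p = 0.086). Here too the difference between the gases was called for no gene.

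When 1 exposure time was left out, the calls of ATG39 in both gases and of ATG8, ATG9 and ATG20 in N2 passed each time, and each of the others was lost at least once. In CO the adjusted p reached 0.0588 for ATG1 (without 60 or 120 min), 0.115 for ATG2 (all but 15 min), 0.0674 for ATG8 (45, 60 or 120 min), 0.0768 for ATG9 (30, 45 or 120 min) and 0.0599 for ATG20 (120 min). It also reached 0.0772 for ATG12 (30, 45, 60 or 120 min), 0.0775 for ATG13 (60 or 120 min), 0.164 for ATG15 (all but 24 h) and 0.0595 for ATG21 (45 or 120 min). In N2 it reached 0.0754 for ATG1 (45, 60 or 120 min), 0.0566 for ATG7 (45 or 120 min), 0.0535 for ATG15 (30 or 45 min) and 0.108 for ATG18 (30, 60 or 120 min). It was 0.139 for ATG12 (all but 15 min), 0.135 for ATG29 (45, 60 or 120 min or 24 h) and 0.122 for ATG40 (30, 45, 60 or 120 min). With the 15 min ratio of the gas subtracted, which removes a constant dye effect along with any change in the first 15 min, 1 member was called lower and 4 higher in CO (13.4% and 6.1% of all ORFs), and 1 lower and 5 higher in N2 (11.9% and 6.24%). In CO the calls of ATG1, ATG8, ATG9, ATG13, ATG15 and ATG39 were then lost (adjusted p from 0.124 to 0.856). Calls lost in N2 were those of ATG1, ATG7, ATG9, ATG15, ATG18, ATG20, ATG39 and ATG40 (adjusted p from 0.0551 to 0.876).

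CO and N2 were not told apart by any ATG gene. With exposure time as a block, limma called 0 of 35 members and 0 of 5672 ORFs (0.0%), and without the block it also called 0. At an unadjusted p under 0.05 there were 1 of 35 members, ATG40, and 584 of 5672 ORFs, so the members did not stand out from all ORFs. The member estimates ran from -0.34 to 0.22 on the log2 scale, CO minus N2. ATG40 was lower in CO than in N2 at 6 of 6 times, by 0.10 to 0.43, with a mean log2 difference of -0.30 ± 0.115 (SE, unadjusted p = 0.025, adjusted p = 0.42). ATG2 had the most negative estimate, -0.34 ± 0.175 (adjusted p = 0.548), and was lower in CO at 5 of 6 times. A missed threshold with 6 pairs of arrays does not show that the gases act alike.

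The gases stood farthest apart at 24 h, where 4 members and 15.8% of all ORFs differed by at least 2-fold between the 2 arrays. ATG31 was at -1.21 in CO and 0.24 in N2, and ATG8 at 0.63 in CO and 1.93 in N2. ATG26 was at 0.07 in CO and -1.03 in N2, and ATG41 at -0.42 in CO and -1.63 in N2. CO was thus lower for ATG31 and ATG8 and higher for ATG26 and ATG41. At the earlier times the gases differed 2-fold for ATG34 at 30 min (0.59 in CO, -0.41 in N2) and at 60 min (0.05 in CO, 1.24 in N2) and for ATG17 at 120 min (0.02 in CO, 1.20 in N2), where 4.65%, 4.27% and 4.34% of ORFs did. The sign for ATG34 turned between 30 and 60 min, and each of these differences rests on 2 arrays and has no test.

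Autophagy also needs genes with other names. Of 8 partners of the phosphatidylinositol 3-kinase and of retromer-like sorting, 4 fell at 24 h and 2 rose, beside 25.1% and 22.5% of all ORFs. VPS15, the regulatory kinase of the complex, had log2 ratios of -2.78 in CO and -2.36 in N2 after 24 h, against -0.87 to 0.01 in CO and -1.07 to 0.21 in N2 earlier. Its log2 difference at 24 h was -2.04 ± 0.224 (adjusted p = 3.75e-05). VPS30, the yeast Beclin, fell by 1.10 (SE 0.255, adjusted p = 0.0041) and SNX4, the partner of ATG20, by 0.69 (SE 0.218, adjusted p = 0.021). VPS34, also of this list, read -0.91 in CO and -0.46 in N2 after 24 h. It was not called there (log2 difference -0.36 ± 0.224, adjusted p = 0.205). HSV2, a relative of ATG18 and ATG21 that binds phosphoinositides, rose with 1.39 in CO and 1.37 in N2 after 24 h (log2 difference 1.11 ± 0.168, adjusted p = 0.000288). ATG20 and its partner SNX4 were called in opposite directions, and SNX4 lost its call without 15 min (adjusted p = 0.0563). Under quantile normalization the call of VPS15 remained (-1.15, adjusted p = 0.0215), while VPS30 (-0.70, adjusted p = 0.137), HSV2 (0.49, 0.139), SNX4 (-0.17, 0.619) and ATG20 (0.22, 0.563) lost theirs.

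Of 14 genes for fusion with the vacuole, 6 fell and 1 rose at 24 h (25.1% and 22.5% of all ORFs). Averaged over time, 5 were lower and 1 higher than air in CO (19.4% and 12.7%) and 6 lower and 2 higher in N2 (20.2% and 17.6%). MON1 was higher in both gases, 0.61 ± 0.13 in CO (SE, adjusted p = 0.00395) and 0.53 ± 0.13 in N2 (adjusted p = 0.00744). VAM3 was higher in N2 (0.57 ± 0.171, adjusted p = 0.0191). CCZ1, part of the complex that loads the fusion GTPase Ypt7, ran from -2.38 to -1.0 in CO and from -2.53 to -0.60 in N2, below air on every array. Its means were -1.71 ± 0.215 in CO (SE, adjusted p = 0.000255) and -1.61 ± 0.215 in N2 (adjusted p = 0.000335). VPS11, VPS16 and VPS18 encode subunits of the tethering complexes at the vacuole. VPS11 averaged -1.23 ± 0.188 in CO and -1.08 ± 0.188 in N2, and VPS16 -0.82 ± 0.171 and -0.83 ± 0.171 (adjusted p from 0.000752 to 0.00365 over the 4 means). VPS18 fell at 24 h by 1.20 (SE 0.196, adjusted p = 0.000445), with -1.55 in CO and -1.66 in N2. The 24 h differences of CCZ1 and VPS11 were -0.88 and -0.85, and under quantile normalization they turned to 0.18 and 0.06. VPS18 lost its call there (-0.45, adjusted p = 0.187), as did VPS16, from a 24 h difference of -0.94 to -0.14 (adjusted p = 0.663). The CO call of VPS16 was also lost with the 15 min ratio subtracted (-0.48, adjusted p = 0.0873). How MON1 and VAM3 fared under the alternatives was not examined.

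Among 13 hydrolases, inhibitors and cargo enzymes, 5 fell and 4 rose at 24 h, beside 25.1% and 22.5% of all ORFs. Those that rose included PEP4 (log2 difference 1.06 ± 0.345, adjusted p = 0.0247) and CPS1 (1.00 ± 0.226, adjusted p = 0.00353). PEP4 read 0.61 in CO and 1.45 in N2 after 24 h. How PEP4 and CPS1 fared under the alternatives was not examined. PRB1, the vacuolar proteinase B, read -1.86 in CO and -2.02 in N2 after 24 h, against -0.35 to 0.11 in CO and -0.25 to 0.38 in N2 earlier (log2 difference -1.90 ± 0.208, adjusted p = 3.69e-05). APE3, a vacuolar aminopeptidase, fell by 1.16 (SE 0.266, adjusted p = 0.00379), and PBI2, an inhibitor of proteinase B, by 1.08 (SE 0.316, adjusted p = 0.0145). Under quantile normalization PRB1 remained called (-1.12, adjusted p = 0.00815), and APE3 (-0.89, 0.0772) and PBI2 (-0.84, 0.091) did not; PBI2 also lost its call with the 5 earlier times weighted equally (adjusted p = 0.0671). NUC1, a mitochondrial nuclease, was low throughout, with means of -1.42 ± 0.264 in CO (adjusted p = 0.00209) and -1.79 ± 0.264 in N2 (adjusted p = 0.000613).

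Of 22 genes of TORC1 and its upstream regulators, 9 fell and 3 rose at 24 h, beside 25.1% and 22.5% of all ORFs. RIM15, a kinase of the starvation response held back by TORC1 and protein kinase A, read -0.01, -0.89, -1.27, -1.49, -1.75 and -1.70 in CO, and 0.11, -0.25, -0.77, -1.43, -1.77 and -1.62 in N2. It declined up to 120 min and was no lower at 24 h than then, with a log2 difference of -1.35 ± 0.211 for 60 and 120 min against 15 and 30 min (adjusted p = 0.00783), which was lost without 15 min (adjusted p = 0.21) or 120 min (0.0511). IML1, part of the SEA complex that restrains TORC1, read -1.71 in CO and -1.73 in N2 after 24 h and fell by 1.31 (SE 0.206, adjusted p = 0.000351). TOR2, a TOR kinase of both complexes, fell by 0.98 (SE 0.204, adjusted p = 0.00212), while LST8, a subunit shared by both TOR complexes, rose (1.06 ± 0.241, adjusted p = 0.00355). All 4 genes lost these calls under quantile normalization: RIM15 (-0.98, adjusted p = 0.0684), IML1 (-0.60, 0.153), TOR2 (-0.56, 0.118) and LST8 (0.69, 0.0977).

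Of 17 tested regulators of ATG transcription, 6 fell and 2 rose at 24 h, beside 25.1% and 22.5% of all ORFs; DAL80 lacked values on some arrays and was not tested. RPH1, a repressor of several ATG genes in fed cells, read -1.19 in CO and -1.26 in N2 after 24 h (log2 difference -0.92 ± 0.175, adjusted p = 0.00126). URE2, which holds the activator Gln3 in the cytoplasm, fell by 1.00 (SE 0.211, adjusted p = 0.00227), and SPT10 by 1.01 (SE 0.245, adjusted p = 0.00521). Under quantile normalization RPH1 (-0.27, adjusted p = 0.392), URE2 (-0.38, 0.324) and SPT10 (-0.73, 0.0651) lost these calls. PHO23, another regulator of this list, went the other way, with 1.22 in CO and 1.21 in N2 after 24 h. Its earlier values ran from -0.11 to 0.57 in CO and from 0.07 to 0.88 in N2. How PHO23 fared under the alternatives was not examined. XBP1, a stress-induced repressor, read -0.02, 0.28, 0.57, 1.17, 0.72 and -0.25 in CO, and 0.11, 1.09, 1.94, 1.35, 2.96 and 0.12 in N2. It was near air at 15 min and at 24 h and higher in between, more so in N2, where its mean was 1.26 ± 0.309 (adjusted p = 0.00731) against 0.41 ± 0.309 in CO (adjusted p = 0.314). The gases were not told apart for XBP1 either, since 0 ORFs were called in that comparison.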

How the data were processed

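The deposited values are log2 ratios of the 2 channels of each array, 1 per ORF, used as the authors gave them; base 2 was taken from their range and the direction, Cy5 gas over Cy3 air, from the dyes per the labels. How background was corrected, how values were normalized, which probes were used and which genome build they follow is not stated, and the depth of an array is its number of ORFs with a value. The number of arrays limits the precision. Names and neighbours came from the R64 annotation, which matched 5651 ORFs; no coordinates or sequences are printed, and a planned promoter search was not run.

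For the 5672 ORFs with a value on all 12 arrays, models were fitted in R 4.3.3 using lmFit and eBayes of limma 3.58.1, with Benjamini-Hochberg adjustment and a threshold of 0.05. CO and N2 were compared with air as group means (10 residual degrees of freedom), with each other with exposure time as a block (5), and periods with gas as a covariate (7). Exposure times are the same in CO and N2 per the labels. Over ORFs, the CO and N2 arrays of a time deviated together from their own gas means (Pearson r between 0.255 and 0.776), so time was taken to pair them. The labels name no batch.

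All values are given for up to 8 called members per direction and comparison with the largest estimates and for ATG1, ATG8, ATG9, ATG11, ATG32 and ATG41. Other pathway lists name up to 4 called genes with the largest estimates. Some genes called higher were added for vacuolar fusion and for hydrolases, and VPS34 and PHO23 were added for their lists. Members and lists were chosen with earlier results of these data known. The fits were tested on simulated data. Alternatives were median centring, quantile normalization, values on at least 10 arrays, a replicate block, arrays of a gas alone, subtraction of the 15 min ratio, equal weights for the 5 earlier times, and leaving out each time.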

Additional observations from a re-analysis of the deposited data

Results flagged for a closer look

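In 13 of 70 sets of 6 ratios (35 genes in each gas), 1 array stood far from its nearest neighbour by Dixon's criterion (a gap of over 0.625 of the range). The criterion's rate of about 1 in 20 sets holds for independent values of 1 normal population. Ratios at 6 successive times are not such values, so the share of all ORFs is the reference here. All 13 were 24 h arrays, of 10 genes. By the same criterion 5 of 35 members stood out in CO, beside 15.7% of all ORFs, and 8 of 35 in N2, beside 19.6%. Of those ORFs, 78.7% in CO and 87.8% in N2 did so at 24 h. Both gases stood apart for ATG1 (-3.35 in CO, -3.61 in N2), ATG5 (-0.95 in CO, -1.16 in N2) and ATG7 (-1.52 in CO, -1.99 in N2). CO alone stood apart for ATG10 (-1.32) and ATG31 (-1.21). N2 alone stood apart for ATG22 (1.54), ATG23 (-0.73), ATG26 (-1.03), ATG32 (-1.29) and ATG41 (-1.63). Of the 13 values only that of ATG22 was above air. The gases share the time and may share its air RNA, so its 2 arrays may not be independent of each other.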

How the results depend on the processing

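With exposure time as a replicate block, 11 members were called higher and 7 lower in CO, and 14 higher and 7 lower in N2. That block takes the spread between times out of the error and leaves only differences between the gases at the same time. From the arrays of that gas alone, 3 were called higher in CO. With the 15 min ratios subtracted, 1 was called lower in CO and 1 in N2, ATG39 in CO turned to 0.20 (adjusted p = 0.245), and PBI2 in N2 turned to -1.01 (adjusted p = 0.0352). The subtracted ratio comes from 1 array, and its error is not part of these p-values. PBI2 read 0.87 on the N2 array of 15 min and averaged 0.03 in N2 without the subtraction. Quantile normalization, which removes the wider spread of the 24 h arrays, left 0 higher and 4 lower members at 24 h and 1 higher and 0 lower for 60 and 120 min. It turned ATG1 for 60 and 120 min to 0.03, CCZ1 at 24 h to 0.18, and VPS11 to 0.06 at 24 h and 0.10 for 60 and 120 min. Leaving out each time gave 0 to 9 members higher and 1 to 5 lower in CO, 3 to 10 higher and 2 to 4 lower in N2, 7 to 10 higher and 13 to 14 lower at 24 h, and 0 to 4 higher and 0 to 2 lower for 60 and 120 min. The 0 in CO came without the 120 min arrays, while without the 24 h arrays 9 were higher in CO and 10 in N2. CO against N2 gave 0 calls under all alternatives tried. The table holds no signal over background, so dim probes were not filtered.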

Other observations

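ICY1, the paralog of ATG41, was looked up after the values of ATG41 were seen. It read 0.85, 1.93, 1.75, 2.26, 2.16 and 2.45 in CO, and 1.57, 1.13, 2.18, 2.0, 3.41 and 2.93 in N2, in the order of exposure times. ICY1 was thus above air on all 12 arrays, and at 24 h it was at 2.45 in CO and 2.93 in N2, where ATG41 was at -0.42 in CO and -1.63 in N2. The paralogs' ratios were not compared by a test.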
